A study of Mus musculus with 40 samples.

Results

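The subcortical maternal complex is a set of oocyte proteins, and its 6 member genes Nlrp5, Tle6, Ooep, Khdc3, Padi6 and Nlrp2 were followed here at the transcript level through oocyte growth in the mouse. Members were taken as the probe sets whose gene symbol in the platform annotation is exactly that of a member. This gave 5 probe sets for 5 of the 6 genes, out of 45037 probe sets of the array types 430A and 430B with controls left out. Nlrp5 (1418882_at) and Tle6 (1448727_at) were measured on 430A, and Ooep (1460471_at), Khdc3 (1429377_at) and Padi6 (1437084_at) on 430B. Each member thus rests on a single probe set, and Nlrp2 is not analysed here because no probe set carries its symbol.

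Oocytes were collected from the ovaries of SJLB6 female mice with no genetic alteration or treatment given in the labels. At 2 days of age 400 oocytes per sample were taken from primordial follicles, at 6 days 90 from primary, at 12 days 60 from secondary, at 17 days 30 from small antral and at 24 days 20 from large antral follicles. Amplified RNA of each sample was read on 1 Affymetrix array, with 4 samples per stage on each array type and 40 samples in all. The samples are pools of oocytes, so fewer oocytes with much of a transcript and less of it in each oocyte cannot be told apart, and stage cannot be told apart from mouse age and pool size. Signals are levels relative to a trimmed mean set equal in all arrays, not transcripts per oocyte.

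Some columns need a remark before their values are used. On both array types the primordial replicates 2 to 4 had the form of a mean with replicate 1: taking 2 times the value minus replicate 1 gave 0 negative results among 22526 probe sets of 430A and 22411 of 430B. The 4 primordial values of a gene are therefore not independent, their SD is too small, and p-values against this stage are too small. Changes of members and counts of lists from the primordial stage are given as deposited and again with these 3 columns replaced by that difference, called unmixed. On 430B, the extraction protocol of 3 small antral samples (replicates 2 to 4) names 12 days and 60 oocytes, which are those of secondary follicles. They were kept as small antral from their titles, and the small antral values of Ooep, Khdc3 and Padi6 carry this doubt.

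The summed signal of 9 oocyte markers on 430A lay between 46014 and 61476 in primordial, 98519 and 103191 in primary and 70670 and 78181 in large antral samples. Between primary and large antral 3 of these 9 markers rose and 6 fell. Of 18 granulosa cell markers, Amh, Wt1 and Gatm were below the signal filter and Cyp19a1 had no probe set. The 11 tested on 430A summed to between 1307 and 2351 in all samples, and the 3 on 430B to between 1834 and 3372. Of these 3 Foxl2 was the brightest, with means of 1580 in primordial and 2111 in primary samples. Between primary and large antral 3 of the 14 tested granulosa markers rose and 0 fell (limma). Over all tested probe sets 19.6% rose and 21.6% fell on 430A in this span, and 7.16% and 7.63% on 430B. Some markers of other cells were called too. From primordial to primary the stroma markers Dcn (-2.39) and Star (-0.80) and the surface epithelium markers Krt18 (-1.52) and Upk1b (-1.48, not called unmixed) fell. Thus 2 of 8 stroma and 2 of 4 epithelium markers fell while 0 and 1 rose (Krt8, 0.53). Unmixed, 3 stroma and 1 epithelium markers fell while 0 and 1 rose. In that step 2 of the 14 granulosa markers rose and 2 fell (3 and 2 unmixed), and the 1 other probe set of Dcn was not called. Falls made up 30.0% of all tested probe sets on 430A and 19.7% on 430B, and rises 26.5% and 12.0%. From primary to large antral 3 of 4 endothelial markers rose (Pecam1, Kdr and Tek), and their summed signal on 430A went from between 408 and 607 to between 727 and 925. The part of these markers in the changes of the members was not tested.

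The complex gathers under the plasma membrane of the growing oocyte, is kept out of regions of cell contact in the early embryo, and is required in the mother for the embryo to pass its first cleavages. NLRP5 (also called MATER), TLE6 and OOEP (FLOPED) form its core. KHDC3 (FILIA), like OOEP a KH-domain protein, joins that core, and PADI6 is needed for the cytoplasmic lattices, fibrous structures that store maternal proteins. The transcripts are made while the oocyte grows, and the proteins are used after fertilization, when transcription has been silent for some time.

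Since 4 of the measured members rose in the same comparison, their promoters are shown side by side. RefSeq tables of the build GRCm38.p6 held 8 start windows for the 6 genes, each from 250 bases before to 50 bases after an annotated start. Below are the 250 bases before 1 start of each measured member, 5′ to 3′ on the gene's strand, with matches to the E-box pattern CANNTG in capitals, the pattern bound by basic helix-loop-helix factors such as FIGLA. They lie at chr7:23385639-23385888 (plus strand) for Nlrp5, chr10:81600901-81601150 (minus) for Tle6, chr9:78378589-78378838 (minus) for Ooep, chr9:73102148-73102397 (plus) for Khdc3 and chr4:140742644-140742893 (minus) for Padi6.
Nlrp5: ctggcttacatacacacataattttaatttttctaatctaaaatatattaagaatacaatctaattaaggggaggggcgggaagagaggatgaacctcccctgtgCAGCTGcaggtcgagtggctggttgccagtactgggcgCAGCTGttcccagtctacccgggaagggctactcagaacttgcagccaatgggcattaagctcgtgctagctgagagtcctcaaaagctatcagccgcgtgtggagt
Tle6: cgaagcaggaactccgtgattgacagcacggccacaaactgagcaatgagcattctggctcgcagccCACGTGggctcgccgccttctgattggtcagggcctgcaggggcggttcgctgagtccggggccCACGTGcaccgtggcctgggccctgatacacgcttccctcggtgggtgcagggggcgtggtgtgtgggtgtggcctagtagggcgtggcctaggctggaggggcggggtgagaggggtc
Ooep: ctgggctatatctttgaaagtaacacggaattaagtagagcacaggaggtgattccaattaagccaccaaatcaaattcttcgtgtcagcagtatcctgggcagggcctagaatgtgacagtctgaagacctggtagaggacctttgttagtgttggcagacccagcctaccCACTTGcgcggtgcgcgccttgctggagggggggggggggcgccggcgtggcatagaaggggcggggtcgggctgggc
Khdc3: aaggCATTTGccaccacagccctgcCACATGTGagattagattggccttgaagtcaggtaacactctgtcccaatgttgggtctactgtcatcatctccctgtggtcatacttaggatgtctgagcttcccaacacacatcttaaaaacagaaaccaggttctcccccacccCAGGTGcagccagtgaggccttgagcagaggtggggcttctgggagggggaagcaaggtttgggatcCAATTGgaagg
Padi6: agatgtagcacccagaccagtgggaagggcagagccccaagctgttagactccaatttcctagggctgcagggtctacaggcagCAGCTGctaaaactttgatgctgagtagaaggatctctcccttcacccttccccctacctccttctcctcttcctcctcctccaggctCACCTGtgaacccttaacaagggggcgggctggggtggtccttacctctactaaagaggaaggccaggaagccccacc
In the sequences above, Ooep, Khdc3 and Padi6 each carry an E-box whose first base is at position -78, counting the base before the start as -1. Its letters are CACTTG in Ooep, CAGGTG in Khdc3 and CACCTG in Padi6, which reads CAGGTG on the opposite strand. An E-box starts at exactly this position in 159 of 32851 windows of all genes (0.48%); the position was singled out after the matches were seen. The pattern CANNTG was present in 7 of the 8 windows of members and in 72.3% of all windows, so its presence alone does not set the members apart.

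The other patterns were searched on both strands of the whole windows. CAGGTG was found in 2 of 8 windows against 20.2% of all, and CAGCTG in 3 of 8 against 16.3%, both being cases of CANNTG. The homeobox pattern TAATTG, of the kind bound by NOBOX and LHX8, was in 2 of 8 windows (Ooep and Padi6) against 8.0% of all, and TAATTA in 1 (Nlrp5) against 5.3%. CCAAT was in 6 of 8 windows against 37.4%, and overlaps the TAATTG match in Ooep. GGGCGG, the GC box, was in 4 of 8 against 35.7%, and TATAAA in 1 of 8, a second Nlrp5 window, against 13.6%. These matches describe letters in a window and are not shown to be bound sites.

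**Figure D1:**
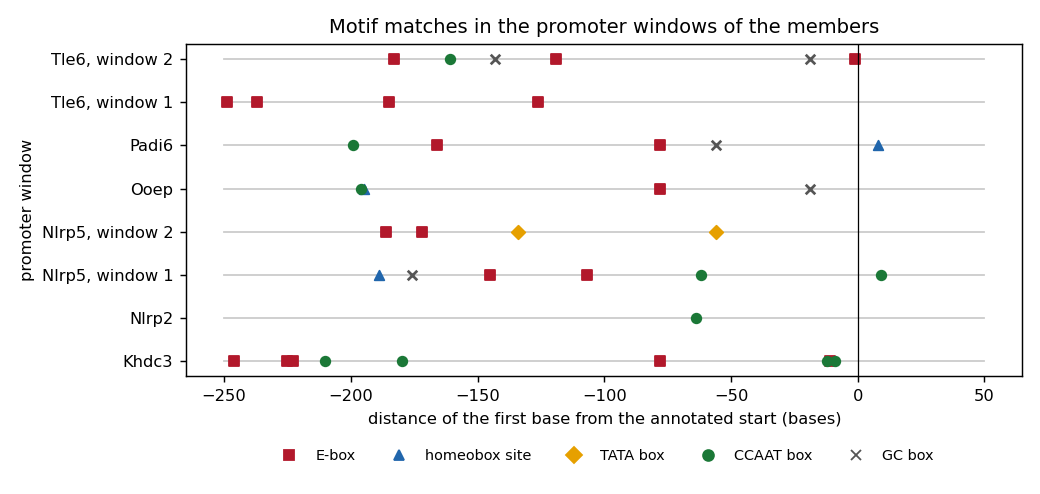
Matches to 5 kinds of motif in the 8 promoter windows of the 6 member genes, by distance of the first base from the annotated start in bases; grey lines are the windows and the vertical line is the start. E-boxes lie in 7 of the 8 windows, and those of Ooep, Khdc3 and Padi6 share the position -78.

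Nlrp5 encodes the leucine-rich-repeat core protein of the complex. In the 4 replicates its scaled signal was 18233, 23694, 21507 and 22112 at the primordial stage and 20570.3, 21928, 21136 and 20199 at the primary stage. The primary values fell inside the primordial range. It read 17807, 19893, 17554 and 21664 in secondary, 19135, 18707, 16776 and 16648 in small antral and 14647.5, 13306, 13018 and 13216 in large antral oocytes. All large antral values lay below all values of the other stages. Stage means ran from 21387 ± 2295.5 (SD, n = 4) in primordial and 20958 ± 753 in primary to 13547 ± 743 in large antral oocytes.

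The primordial to primary log2 change of Nlrp5 was -0.02 ± 0.09 (SE, n = 4 per stage; adjusted p = 0.844; -0.24 ± 0.12 unmixed, adjusted p = 0.117), with a 95% interval of -0.21 to 0.16. Under quantile normalization, which gives every array the same distribution, this change became 0.35 (adjusted p = 4.69e-04), so its direction depends on the scaling. No step from primordial to small antral passed the test. The large antral stage was lower: the log2 change from small antral was -0.39 ± 0.07 (adjusted p = 0.0023) and from primary -0.63 ± 0.07 (adjusted p = 9.83e-07), a signal 1.55 times lower. Quantile normalization left -0.03 of the small antral to large antral change (adjusted p = 0.856) and -0.34 of the primary to large antral change. A probe set for Nlrp5-ps, the pseudogene of Nlrp5 on the same chromosome, was present on 430B but reached a signal of 100 in 3 of 20 arrays and was not tested.

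Tle6 encodes a core protein of the complex that belongs to the Groucho family, otherwise known for corepressors. Its scaled signal was 9707.5, 9177, 7764 and 7009 in primordial and 20266.5, 19753, 18441 and 19206.5 in primary oocytes. Every primary value was above every primordial value. Unmixed primordial replicates 2 to 4 read 8952, 5971 and 4604.5, lower still for replicates 3 and 4. Secondary samples read 22591, 20776, 19279.7 and 18056, small antral samples 17132, 19417, 19061 and 15342 and large antral samples 14942, 13016, 12799.8 and 15180.4. The large antral values lay below those of the 3 stages before and above those of the primordial stage.

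The mean signal of Tle6 was 2.31 times higher in primary than in primordial oocytes (19417 ± 781 against 8414 ± 1245.5; SD, n = 4). This is a log2 change of 1.21 ± 0.10 (SE; adjusted p = 6.35e-10; 1.46 ± 0.17 unmixed, adjusted p = 3.29e-07). Primary and secondary (0.05 ± 0.09, adjusted p = 0.748) and secondary and small antral oocytes (-0.19 ± 0.09, adjusted p = 0.157) did not pass the test. From small antral to large antral Tle6 changed by -0.34 ± 0.09 (adjusted p = 0.0148). That call was lost without large antral replicate 2 (-0.31, adjusted p = 0.0537) or 3 (-0.30, adjusted p = 0.0556), and quantile normalization turned the value to 0.02. Against the primary stage the large antral change was -0.48 ± 0.09 (adjusted p = 1.48e-04), which became -0.15 (adjusted p = 0.0717) under quantile normalization.

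Nlrp5 and Tle6 are both among the brightest 1% of tested probe sets of 430A, whose median log2 change from small antral to large antral was -0.27 over 158 probe sets and -0.03 after quantile normalization. For primary to large antral the same medians were -0.21 and -0.03. The fall of Nlrp5 from primary to large antral was larger than that median and passed the test under both scalings.

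Ooep encodes a small KH-domain protein of the core. Scaled signals of 33758.5, 39398.5, 32605 and 35132.5 were read in primordial and of 56622, 62429, 53702.5 and 54183.5 in primary oocytes. All primary values were above all primordial values. In the later stages the signals were 64279.8, 54413, 68633 and 60916 (secondary), 51869, 55058, 56971 and 54558 (small antral) and 70245, 56646.5, 59621.5 and 61693 (large antral). These 3 stages overlapped each other and the primary stage.

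Between primordial and primary oocytes the mean signal of Ooep differed by 1.61 times (35224 ± 2969 against 56734 ± 4006; SD, n = 4), a log2 change of 0.69 ± 0.10 (SE; adjusted p = 7.47e-06; 0.62 ± 0.14 unmixed, adjusted p = 0.00134). No later step passed the test. Large antral oocytes differed from primary ones by a log2 change of 0.13 ± 0.09 (adjusted p = 0.453), with a 95% interval of -0.06 to 0.31. Quantile normalization gave 0.26 (adjusted p = 0.0205), a rise that passed the test, and 0.41 from small antral to large antral (adjusted p = 0.00525). Falls of the size of Nlrp5 or Tle6 in the main scaling lie outside the interval, but those genes were read on the other array type. From primary to large antral the brightest 1% of probe sets had a median change of 0.04 on 430B and -0.21 on 430A. The change of Ooep was therefore not compared with those of Nlrp5 and Tle6.

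Khdc3 encodes the KH-domain protein FILIA, whose loss from the egg leads to chromosome errors in the early embryo. Its primordial signals were 7681, 9154, 7147 and 6815 and its primary signals 24579, 26466, 28444 and 26547. Every primary value was far above every primordial one. After the primary stage Khdc3 went from 24802, 22892, 20617 and 25503 in secondary through 16141, 10969.6, 12775 and 17289 in small antral to 6251, 7764, 8022 and 6402 in large antral oocytes. The last 3 stages did not overlap each other, and the large antral values overlapped those of the primordial stage.

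In stage means, Khdc3 was 7699 ± 1033 (SD, n = 4) in primordial, 26509 ± 1578 in primary, 23453 ± 2189.5 in secondary, 14294 ± 2929 in small antral and 7109.9 ± 913 in large antral oocytes. The rise into the primary stage was 3.44-fold (log2 1.79 ± 0.13, SE; adjusted p = 6.45e-11; 1.79 ± 0.16 unmixed, adjusted p = 8.88e-09). The fall from primary to large antral was 3.73-fold (log2 -1.90 ± 0.12, adjusted p = 3.78e-10), and it kept its direction and its call in all 18 alternatives run, between -2.09 and -1.84. Large antral and primordial oocytes differed by -0.11 ± 0.13 (adjusted p = 0.516; 95% interval -0.38 to 0.15; -0.11 ± 0.16 unmixed). Here the scaling sets the direction: quantile normalization gave -0.70 (adjusted p = 9.25e-05), and arrays at the same median gave 0.24 (adjusted p = 0.217).

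Most of the decline of Khdc3 lay after the secondary stage. Primary to secondary gave -0.18 ± 0.12 (adjusted p = 0.575), secondary to small antral -0.73 ± 0.12 (adjusted p = 6.64e-04) and small antral to large antral -0.99 ± 0.12 (adjusted p = 2.46e-04). Without the 3 small antral samples of doubtful age, 1 small antral array was left, and the secondary to small antral change was -0.53. That array read 16141, below every secondary value. A single array gives no spread of its stage, so no call can be read from this setting.

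Padi6 encodes a member of the peptidylarginine deiminase family. Its primordial signals were 32444, 24994, 23280.1 and 21430.3, and the unmixed replicates 2 to 4 read 18035, 14519 and 11050.5. Primary samples read 85967.5, 87010.2, 86641 and 87895, the highest of all stages and the narrowest relative spread of this gene. Secondary samples read 74328.5, 72344, 73855 and 70556, small antral 57777, 59153, 55893 and 61320.2 and large antral 53712, 54335, 53767 and 52022. No pair of the 5 stages overlapped, and from the primary stage on each stage lay wholly below the one before.

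The rise of Padi6 from primordial (25537 ± 4829; SD, n = 4) to primary (86878 ± 803) was 3.40-fold as deposited (log2 1.78 ± 0.10, SE; adjusted p = 9.23e-13) and larger unmixed (2.31 ± 0.20; adjusted p = 3.81e-09). It then fell by steps: -0.26 ± 0.07 to secondary (adjusted p = 0.0279), -0.31 ± 0.07 to small antral (adjusted p = 0.00637), and an uncalled -0.13 ± 0.07 to large antral (adjusted p = 0.502). The first of these calls was kept in 4 of 18 alternatives and the second in 14 of 19, with adjusted p up to 0.474 and 0.194. The replicate block, which takes the sample numbers as a term, ended the first (adjusted p = 0.0521). Over the whole span from primary to large antral the change was -0.70 ± 0.07 (adjusted p = 1.21e-07), a signal 1.63 times lower, and the call held in all 18 alternatives.

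**Figure D2:**
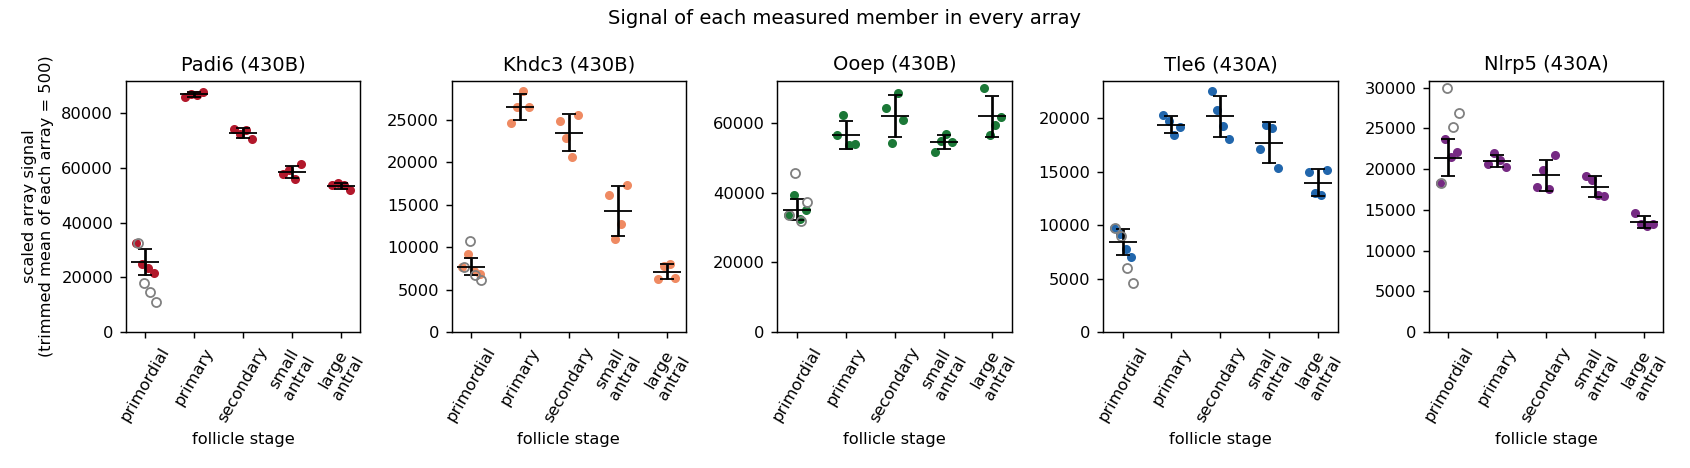
Scaled signal of the 5 measured members in every array, by follicle stage; filled points are the 4 arrays of a stage, bars are the mean ± SD, and grey open circles are unmixed primordial values. The axes start at 0 and differ between genes; Khdc3 falls from 26509 in primary to 7110 in large antral oocytes while Ooep stays between 54614 and 62060.4 over the same stages.

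Counted by comparison, 4 of the 5 measured members rose from primordial to primary and 0 fell. The background is wide here: 56.5% of tested probe sets on 430A and 31.7% on 430B were called, with rises in 26.5% and 12.0%. The unmixed fit, which called 50.4% and 22.7% of probe sets, made the same 4 calls, and quantile normalization added Nlrp5. The median log2 change of the 5 members was 1.21, against -0.08 over all tested probe sets of 430A and -0.23 of 430B. The 191 brightest 1% of 430B, which include Ooep, Khdc3 and Padi6, had a median change of 0.92 in this comparison and 0.48 after quantile normalization. Of the called 430B probe sets 37.9% were rises in this comparison, 48.8% after quantile normalization and 62.2% with arrays brought to the same median.

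Between neighbouring later stages 1, 2 and then 3 of the 5 members were called, all as falls. From primary to secondary 1 fell (Padi6) and 0 rose, with 19.4% of 430A and 5.24% of 430B probe sets called. From secondary to small antral 2 fell (Khdc3 and Padi6), with 17.4% and 5.14% called. From small antral to large antral 3 fell (Khdc3, Nlrp5 and Tle6), with 11.4% and 1.55% called. No member rose in these 3 steps, except that Ooep was called as a rise in the last one under quantile normalization.

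Over the whole of later growth, from primary to large antral, 4 of 5 members fell and 0 rose, with 41.3% of 430A and 14.8% of 430B probe sets called and falls in 21.6% and 7.63%. Under quantile normalization 3 fell and 1 rose, the call of Tle6 being lost and that of Ooep gained. The median log2 change of the members was -0.63, against -0.00 over all tested probe sets of 430A and -0.01 of 430B. From primordial to large antral, which shares its samples with the comparisons above, 3 members rose and 1 fell, with 64.8% and 38.4% of probe sets called (58.2% and 29.9% unmixed). The rises were those of Padi6 (1.08 ± 0.10, adjusted p = 4.32e-09; 1.61 ± 0.20 unmixed), Ooep (0.81 ± 0.10, adjusted p = 3.37e-07; 0.75 ± 0.14 unmixed) and Tle6 (0.74 ± 0.10, adjusted p = 1.22e-06; 0.99 ± 0.17 unmixed). Nlrp5 fell (-0.65 ± 0.09, adjusted p = 8.00e-07; -0.87 ± 0.12 unmixed), but under quantile normalization its change was 0.003 (adjusted p = 0.976).

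**Figure D3:**
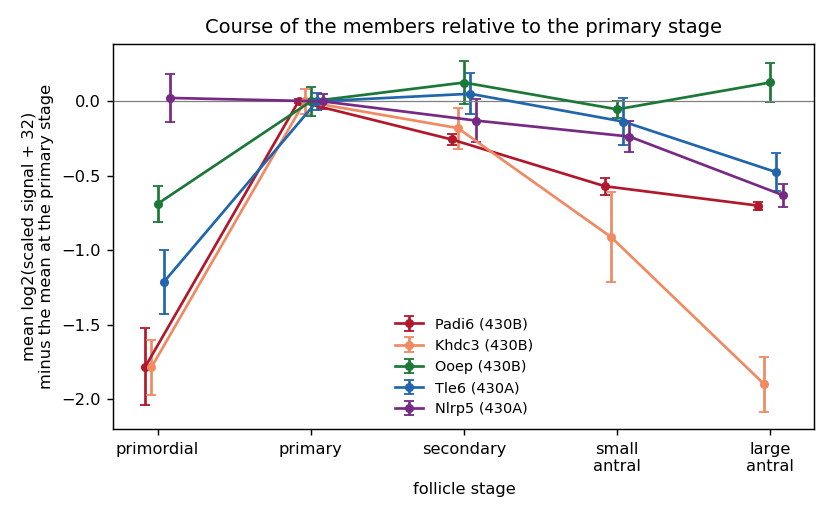
Mean log2 signal of each measured member minus its mean at the primary stage, by follicle stage; bars are the SD of 4 arrays at each stage. Padi6 and Khdc3 start about 1.78 below the primary stage and Nlrp5 starts level with it, and by the large antral stage Khdc3 is lowest at -1.90 while Ooep is at 0.13.

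Differences between the courses of the members were tested within arrays. The ratio of a pair of genes on the same array does not depend on the linear scaling of that array, and 8 changes of such ratios were tested by two-sided exact permutation of 4 against 4 samples, whose smallest p is 0.0286. Over primary to large antral Khdc3 fell relative to Ooep by 2.03 on the log2 scale, or 4.08-fold (exact p = 0.0286, 0.0381 adjusted over the 8). Relative to Padi6 it fell by 1.20 (exact p = 0.0286, adjusted 0.0381), and Padi6 fell relative to Ooep by 0.83 (exact p = 0.0286, adjusted 0.0381). None of these 3 ratios overlapped between the stages. For Nlrp5 over Tle6 the same change was -0.15, with overlapping values (exact p = 0.0857, adjusted 0.098).

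From primordial to primary, Khdc3 and Padi6 rose by nearly the same factor as deposited, their ratio changing by 0.004 (exact p = 1; -0.52 and exact p = 0.143 unmixed). Both rose relative to Ooep, by 1.10 (Khdc3) and 1.09 (Padi6) on the log2 scale (each exact p = 0.0286, adjusted 0.0381; 1.17 and 1.69 unmixed). Nlrp5 over Tle6 changed by -1.24 (exact p = 0.0286, adjusted 0.0381; -1.70 unmixed). These exact tests treat the 4 primordial samples as independent, which as deposited they are not.

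**Figure D4:**
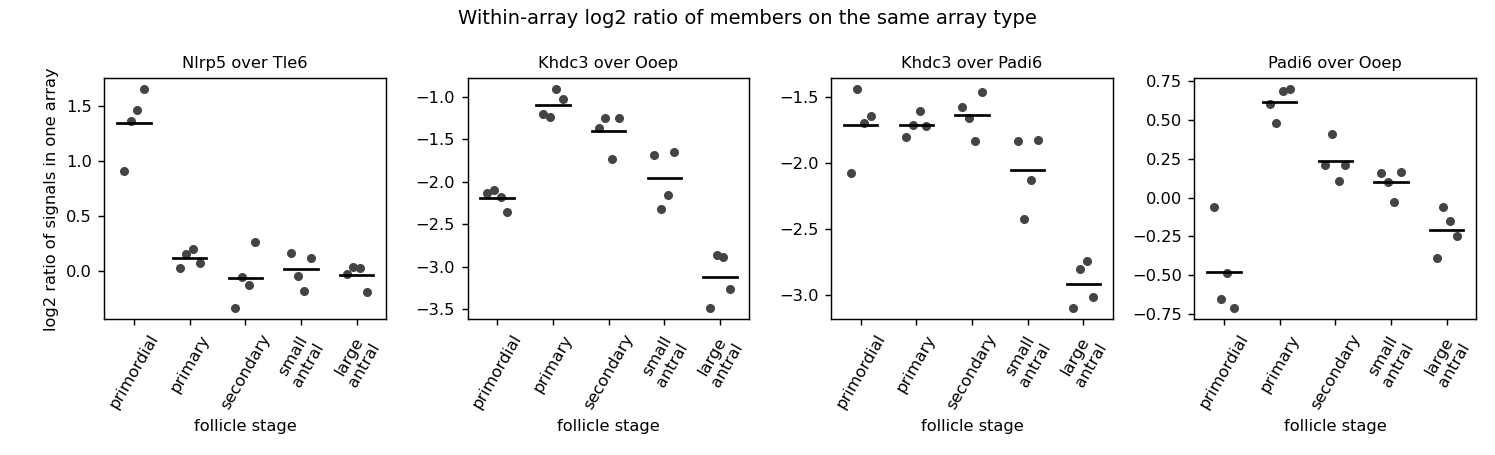
Log2 ratio of the signals of 2 members in the same array, by follicle stage; points are the 4 arrays and lines their mean. Only changes of a ratio can be read, since probe sets differ in brightness; Khdc3 over Ooep moves from -1.10 in primary to -3.12 in large antral oocytes.

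The list of reported partners and cytoplasmic lattice proteins held 10 genes, all tested. From primordial to primary 3 rose and 4 fell (4 and 4 unmixed), with a median log2 change of 0.11. The balance depends on the scaling, with 4 rises and 2 falls under quantile normalization and 6 and 3 with arrays at the same median. Over all tested probe sets, 26.5% rose and 30.0% fell on 430A in this comparison, and 12.0% and 19.7% on 430B. Fbxw24, an oocyte F-box gene, rose by 3.17 ± 0.11 (adjusted p = 6.12e-17), Zbed3 by 1.09 ± 0.14 (adjusted p = 3.35e-07) and the DNA methylation cofactor gene Uhrf1 by 0.72 ± 0.15 (adjusted p = 2.47e-04). Mael, a gene of the germline piRNA pathway, fell by 1.51 ± 0.12 (adjusted p = 1.76e-10) and the tubulin gene Tubb2b by 0.65 ± 0.11 (adjusted p = 1.30e-05). The other 2 falls, Ube2d3 (-0.55) and Spin1 (-0.34), rest on 1 of several probe sets: 5 of 6 other probe sets of Ube2d3 and 3 of 3 of Spin1 were called in the opposite direction, and quantile normalization ended both calls and turned Spin1 to 0.03. For Zbed3, 1 other probe set was called in each direction.

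Later, from primary to large antral, 0 of these 10 partners rose and 5 fell, with a median of -0.22 (2 and 4 under quantile normalization, 0 and 2 with arrays at the same median). They were Mael (-0.64 ± 0.11, adjusted p = 1.24e-04), the Nlrp gene Nlrp14 (-0.36 ± 0.08, adjusted p = 0.00167), Skp1, of the SCF ubiquitin ligase (-0.30 ± 0.08, adjusted p = 0.00314), Uhrf1 (-0.42 ± 0.15, adjusted p = 0.0321) and Fbxw24 (-0.28 ± 0.09, adjusted p = 0.033). The fall of Skp1 was not called under quantile normalization, and those of Nlrp14, Uhrf1 and Fbxw24 not with arrays at the same median. Nlrp4f, whose protein also joins the complex, changed by 0.003 ± 0.08 (adjusted p = 0.99). In this comparison 19.6% of all tested probe sets rose and 21.6% fell on 430A, and 7.16% and 7.63% on 430B.

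Relatives of the KH-domain members Khdc3 and Ooep are the Khdc1 genes and Dppa5a. All 3 measured ones rose from primordial to primary, also unmixed: Khdc1b by 4.23 ± 0.13, Dppa5a by 2.64 ± 0.09 and Khdc1a by 2.28 ± 0.14 (adjusted p = 2.96e-18, 6.62e-18 and 9.14e-13). Toward the large antral stage all 3 fell from their primary level, Khdc1a by 1.84 ± 0.13, Dppa5a by 1.13 ± 0.07 and Khdc1b by 0.28 ± 0.09 (adjusted p = 7.97e-10, 4.83e-11 and 0.0196). The last of these was lost under both other scalings, and another probe set of Khdc1b was called in the opposite direction. Khdc1a had reached its late level by the small antral stage (secondary to small antral -1.45, small antral to large antral -0.03), whereas Dppa5a fell in both steps (-0.59 and -0.57). Khdc1c had no probe set. On 430A, which holds all 3, 26.5% of tested probe sets rose from primordial to primary and 21.6% fell from primary to large antral.

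Among 16 measured relatives of Nlrp5, which are Nlrp genes and also Nlrx1, Nlrc3 and Nlrc5, 7 rose and 0 fell from primordial to primary (8 and 0 unmixed). From primary to large antral 6 rose and 2 fell. Over all tested probe sets rises were 26.5% on 430A and 12.0% on 430B in the first comparison, and 19.6% and 7.16% in the second. The oocyte-expressed Nlrp9a went from 582 ± 424 (SD, n = 4) in primordial to 6883 ± 940 in primary and 20222 ± 2319 in large antral oocytes, with log2 changes of 3.89 ± 0.38 and 1.55 ± 0.12 (SE; adjusted p = 1.21e-08 and 3.25e-09). Nlrp9c, Nlrp9b, Nlrp4e, Nlrp4a and Nlrp4b also rose in both comparisons, by 1.44, 1.06, 0.85, 0.39 and 0.36 in the later one. The later rise of Nlrp4b was lost under both other scalings. Nlrp4c rose by 0.86 at first and fell by 1.21 later, and Nlrp14 fell as given above.

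The relatives of Padi6 and Tle6 differed from these members mainly from primordial to primary, where both members rose. There 0 of 2 tested Padi and 0 of 3 tested Tle relatives rose as deposited. Unmixed, and under both other scalings, these counts were 0 and 1. From primary to large antral Padi2, Tle1 and Tle4 fell, as Padi6 and Tle6 did. Signals of Padi2 and Padi3 were low, with primary means of 314 and 99.8. Padi2 fell by 0.73 ± 0.21 from primary to large antral (adjusted p = 0.00764), Padi3 fell by 0.56 ± 0.22 from primordial to primary (adjusted p = 0.032; lost under both other scalings), and Padi1 and Padi4 were below the filter. Of the corepressor genes, Tle4 fell by 3.13 ± 0.14 and Tle1 by 1.20 ± 0.10 from primary to large antral (adjusted p = 1.31e-12 and 1.03e-08). For Tle4, 0 of 2 other probe sets were called in this comparison, and for Tle1 the 1 other was called as a fall. Both genes also fell from primordial to primary, by 0.58 and 0.65 (both also called unmixed), the comparison in which Tle6 rose.

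Of 12 measured transcription regulators of the oocyte, 4 rose and 7 fell from primordial to primary (4 and 6 unmixed), and 1 rose and 7 fell from primary to large antral. Over all tested probe sets, 26.5% rose and 30.0% fell on 430A in the first comparison, and 12.0% and 19.7% on 430B. In the second these shares were 19.6% and 21.6% on 430A, and 7.16% and 7.63% on 430B. Figla, whose helix-loop-helix protein drives zona pellucida genes, fell in both comparisons, with log2 changes of -1.60 ± 0.13 and -1.99 ± 0.12 (adjusted p = 1.25e-10 and 5.06e-11). Sohlh1, of the same protein class, changed by -2.67 ± 0.16 and -2.57 ± 0.15 (adjusted p = 3.28e-12 and 9.41e-11), and Tcf12, a partner of that class, by -1.29 ± 0.16 and -3.33 ± 0.16 (adjusted p = 1.89e-07 and 3.91e-12). Tcf3, another such partner, rose by 0.51 and then fell by 1.02, and Stat3 rose by 0.62 and then fell by 0.88. For the rise of Stat3, 1 of 3 other probe sets was called in the same and 1 in the opposite direction. For the rise of Tcf3 the 1 other probe set was not called. Gtf2a1l, a germ cell form of a general transcription factor subunit, rose by 1.35 ± 0.16 from primordial to primary (adjusted p = 1.29e-07) and did not pass the later test (-0.30, adjusted p = 0.168). Nobox, a homeobox gene, rose in both, by 0.39 ± 0.12 and 0.37 ± 0.11 (adjusted p = 0.00767 and 0.00824), while Lhx8 fell by 0.50 at first and did not pass the later test (-0.14, adjusted p = 0.267). Foxo3 fell by 0.90 from primordial to primary and Sohlh2 and Taf4b by 0.68 and 0.50, the last 2 not called with arrays at the same median. In this comparison 0 of 2 other probe sets of Foxo3 were called. Unmixed, the primordial to primary values were -1.45 for Sohlh1, -1.10 for Figla and 1.53 for Stat3, and that of Sohlh2 was not called (-0.26, adjusted p = 0.411). From the primary to the large antral stage Sohlh2 fell by 1.04 and Taf4b by 0.86, with 0 of 2 other probe sets of Taf4b called.

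**Figure D5:**
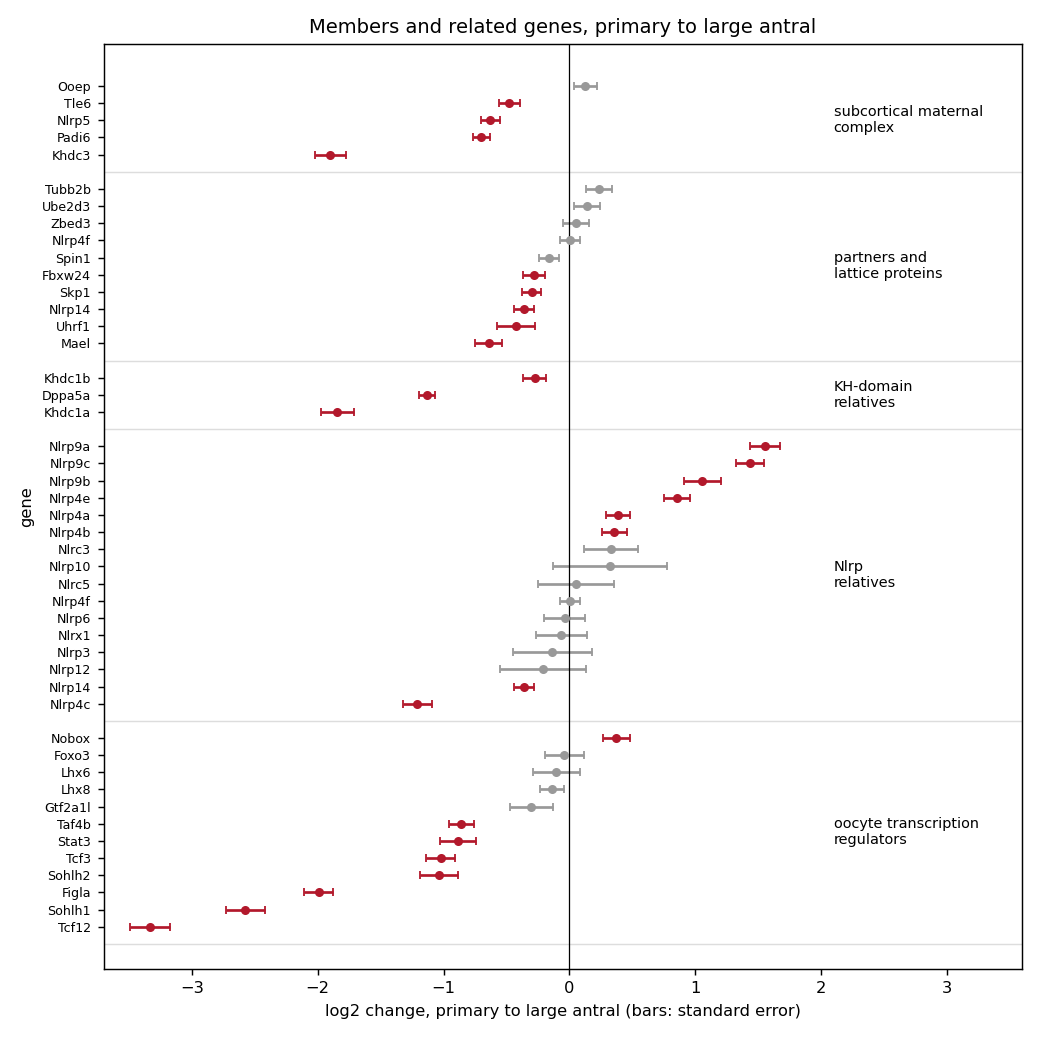
Log2 change from primary to large antral (points) with its standard error (bars) for the members and 4 lists of related genes; red points were called at an adjusted p under 0.05 and grey points were not, and Nlrp14 and Nlrp4f stand in 2 lists. Among the members Khdc3 lies at -1.90 and Ooep at 0.13, while Nlrp9a rises by 1.55 and Tcf12 lies at -3.33.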

How the data were processed

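Oocyte RNA was amplified and biotin-labelled, per the labels' protocols, and the authors deposited linear intensities, 1 signal for each probe set; MAS5 is named in the submitters' processing notes, its version not given in the sources used here. Arrays were brought to a common 2% trimmed mean (500), and changes are differences of log2(signal + 32), which understate changes of low signals. Probe sets reaching 100 in at least 4 of 20 arrays were tested (15845 on 430A, 19115 on 430B), among them all 5 of the members. The fit, separate for 430A and 430B, used limma 3.58.1 (R 4.3.3) with a mean-variance trend, two-sided. Comparisons of later stages used the 16 arrays of those 4 stages (12 residual degrees of freedom) and comparisons with primordial all 20 (15). Calls are at a Benjamini-Hochberg adjusted p under 0.05 over the whole array type; adjusted p without a tool named is limma's. Exact permutations used SciPy 1.17.1.

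The members, lists, tests and naming rule were chosen with earlier results of these data known. Of partners, paralogs and regulators, called genes were named, up to 8 per list and comparison by smallest adjusted p, and of other maternal-effect genes the 4 largest called rises and 4 largest falls from primary to large antral; a gene is 1 probe set, 430A before 430B, then the highest mean. The labels do not say which animals gave a sample, so p-values measure the spread between these samples, and the number of arrays limits precision. On simulated 430A arrays, 24 of 98 probe sets changed by 0.5 (log2) and 73 of 97 changed by 1 were recovered from primary to large antral, and on 430B 2 of 93 and 18 of 96. They were drawn from all tested probe sets, whose median SE in this comparison was 0.17 on 430A and 0.35 on 430B. Members had SE between 0.07 and 0.12. Changed probe sets were also a small part of the 14985 and 18177 tested in the simulation, against 41.3% and 14.8% called in the data. The Benjamini-Hochberg threshold is stricter where few probe sets change. For both reasons these shares do not describe recovery for the members. Alternatives changed the offset, scaling, filter, stages fitted, trend, replicate block, the primordial columns and single samples.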

Additional observations from a re-analysis of the deposited data

How the results depend on the processing

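Of 546 changes of members recomputed under an alternative, 507 kept direction and side of the threshold, 25 lost a call, 4 gained one and 10 turned direction (7 of them called in neither setting); the cause was not tested. Quantile normalization turned Nlrp5 from primordial to primary (0.346) and to large antral (0.003), Tle6 (-0.034) and Ooep (-0.020) from primary to secondary, and Tle6 (0.020) and Padi6 (0.053) from small antral to large antral. Arrays at the same median turned Nlrp5 from primordial to primary (0.132) and Khdc3 from primordial to large antral (0.241), and the unmixed values turned the ratio of Khdc3 over Padi6 from primordial to primary (-0.52). Quantile normalization ended the calls of Padi6 from primary to secondary (-0.119), Nlrp5 from small antral to large antral (-0.027) and Tle6 from primary to large antral (-0.149). It added calls for Nlrp5 from primary to secondary (-0.234), Ooep to large antral from small antral (0.409) and from primary (0.262), and Khdc3 from primordial to large antral (-0.698). With arrays at the same median, Padi6 was not called to secondary (-0.217; 0 members called) or from there to small antral (-0.323; 1 member), and 178 probe sets of 430B were called from small antral to large antral. With all 20 arrays or only the 2 stages compared, the 2 changes of Padi6 (-0.256 and -0.314) were not called, leaving 0 and 1 members, and the 2-stage fit called 112 probe sets of 430B from small antral to large antral. Without the trend these 2 calls and that of Tle6 from small antral to large antral (-0.340) were lost, leaving 0 and 1 members in the first 2 steps, and 430B counts were 565, 623 and 73 for the 3 later steps, against 1002, 982 and 297. Without the small antral samples labelled 12 days, secondary to small antral gave 405 probe sets of 430B, 0 members, Khdc3 at -0.533 and Padi6 at -0.332.

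Leaving out 1 replicate moved Nlrp5 from primordial to primary between -0.098 and 0.028 (0.028 without primordial replicate 2), Tle6 from primary to secondary between -0.005 and 0.103 (-0.005 without secondary replicate 1), Padi6 from primary to secondary between -0.266 and -0.241, with 0 members called each time, and Tle6 from small antral to large antral between -0.408 and -0.295. That step then had between 1162 and 1824 probe sets called on 430A (main 1809; 1162 and 1191 without large antral replicates 2 and 3) and between 171 and 352 on 430B (171 without small antral replicate 4). The replicate block ended the call of Padi6 from primary to secondary (-0.256; 0 members called) and no other call of a member. The labels do not say whether replicate numbers pair the samples. Same-numbered arrays had median correlations of their deviations of 0.007 on 430A (3 of 40 pairs over 0.1) and -0.001 on 430B (0 of 40). For differently numbered arrays the medians were -0.002 (3 of 120 pairs over 0.1) and -0.001 (0 of 120). Such medians cannot show whether samples were paired. Signals of the members were far above the filter of 100, so low signal limits none of them. The sharing among primordial columns and the 3 doubtful small antral samples do limit them. Padi6 had the highest signal of 430B in all 4 primary arrays, and Ooep ranked between 1 and 10 from the primary stage on. Whether signals this high still follow the amount of transcript was not tested.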

Other observations

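A further list held other maternal-effect genes, whose products are needed in the egg or early embryo, and 22 of its 24 genes were tested. From primordial to primary 15 rose and 1 fell, with a median log2 change of 0.84 (15 and 0 unmixed). The 1 fall, Dppa3 (-0.32, limma adjusted p = 0.034), turned to 0.05 under quantile normalization. From primary to large antral 7 rose and 7 fell, with a median of -0.14. The largest rises were those of Dnmt3l, a cofactor of DNA methylation (1.40 ± 0.12), the adhesion gene Cdh1 (1.32 ± 0.12), Pabpn1l, of poly(A) binding (1.20 ± 0.11), and the chromatin factor Ctcf (0.97 ± 0.11), with adjusted p between 1.46e-08 and 4.25e-07. The largest falls were those of Zfp36l2, of mRNA decay (-1.85 ± 0.14), the histone demethylase Kdm1b (-1.12 ± 0.12), the methyltransferase Dnmt1 (-0.66 ± 0.11) and the remodeller Smarca4 (-0.66 ± 0.16), with adjusted p between 2.68e-09 and 0.00277. The 1 other probe set of Zfp36l2 and that of Ctcf were not called in this comparison. For Dnmt1 2 of 2 others and for Smarca4 1 of 1 were called as falls. Over all tested probe sets, 26.5% rose and 30.0% fell on 430A from primordial to primary, and 12.0% and 19.7% on 430B. From primary to large antral these shares were 19.6% and 21.6% on 430A, and 7.16% and 7.63% on 430B.

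Profiles closest to each member, by the smallest root mean square difference of centred log2 signals over the 20 arrays of its type, were those of Zp2, Rpa1 and Pum2 for Nlrp5 (0.13 to 0.14) and Surf1, Ninj1 and Alg2 for Tle6 (0.13 to 0.15). For Khdc3 they were Ccne1, Rapgef2 and Tyw3 (0.27 to 0.28), for Padi6 Nup54, Zfp473 and Rnf139 (0.13 to 0.18) and for Ooep Pgbd5, Fchsd2 and Mcm5 (0.10 to 0.13). Over the 16 later arrays 0 of the 3 were shared for each member, so these neighbours depend on whether the primordial arrays are included. Profiles on 1 array type share their arrays, and no test was made.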
